A study of Mus musculus with 2 samples.

Results

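The small leucine-rich proteoglycans are secreted matrix proteins built from leucine-rich repeats, and the 10 genes described here, Dcn, Lum, Bgn, Fmod, Kera, Ogn, Omd, Prelp, Aspn and Epyc, encode the best known of them. They were taken by symbol from the 32285 genes listed in each of 2 count matrices, and each symbol was found in both. The matrices come from droplet single-cell RNA sequencing of limb skeletal muscle from wild-type (WT) mouse embryos of the C57Bl/6 strain, with 1 library of age E12.5 and 1 of age E15.5 (days of embryonic development). Cells were freed mechanically and with trypsin, and how many embryos went into a library is not given in the labels. With 1 library per age there was no replicate, so no difference between ages was tested. The intervals below cover counting error only.

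Decorin (Dcn), biglycan (Bgn) and asporin (Aspn) form one branch of the family. Lumican (Lum), fibromodulin (Fmod), keratocan (Kera), prolargin (Prelp) and osteomodulin (Omd) form another, and epiphycan (Epyc) and osteoglycin (Ogn) belong to a further one. Many of these proteins bind collagen fibrils and limit or align their growth, and many carry chondroitin, dermatan or keratan sulfate chains. Decorin and biglycan also bind growth factors of the TGF-beta family. In the limb they are known from dermis, fascia, tendon, cartilage and bone.

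Filtering left 11001 cells of the E12.5 library and 3916 of the E15.5 library, with a median of 2321 and 9331.5 UMIs per cell. A UMI (unique molecular identifier) marks a captured RNA molecule. Each library was clustered on its own without the 10 genes, and clusters were named from marker lists as cell classes. The connective tissue-like class held 7657 and 1285 cells, and the chondrocyte-like class held 1141 and 587 cells. A tenocyte-like class of 151 cells was named at E15.5 only, and 12.3% and 25.9% of cells stayed unnamed. The class names did not mark pure types: the E12.5 connective tissue-like cells held 639 CPM (counts scaled to 1000000 UMIs of the class) of the cartilage gene Sox9 and 639 CPM of Col2a1, against 61.7 and 5.76 CPM at E15.5, and the part of this gap in the results below was not tested. Although the tissue is labelled as muscle, 5.46% and 10.1% of cells were muscle lineage-like. The libraries shared 17 barcode sequences, 11 of them among kept cells.

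Of the 10 genes, 9 lie in 3 groups of neighbours in the mouse genome (GRCm38, GENCODE vM21), and Bgn lies alone on chromosome X (73483602 to 73495933). On chromosome 10 the genes stand in the order Dcn (97479609 to 97518143), Lum (97565128 to 97572703), Kera (97606879 to 97613692) and Epyc (97644068 to 97682454), all on the plus strand, with gaps of 47.0, 34.2 and 30.4 kb. On chromosome 13 Aspn (49544443 to 49567565), Omd (49582462 to 49592822) and Ogn (49608046 to 49624501) follow each other at gaps of 14.9 and 15.2 kb. All 3 of these lie within the span of Cenpp, a gene on the opposite strand. Only spans were compared, so whether reads counted without strand could be mixed with Cenpp reads was not tested. On chromosome 1 Prelp (133910304 to 133921414, minus strand) lies 116 kb from Fmod (134037254 to 134048277). Prelp also overlaps the antisense gene Gm15851 and Epyc overlaps the non-coding Gm10754 on the opposite strand. Whether the authors' counting used strand is not given in the sources used here.

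Promoter sequences from RefSeq (GRCm38.p6) were found for 8 of the 10 genes. Those below belong to direct neighbours with unlike levels in these cells, chosen with their values known: Omd and Ogn on chromosome 13, and Kera and Epyc on chromosome 10. Each is the 250 bases before the RefSeq start on the gene's strand. Capitals mark the E-box CANNTG and the motif TATAAA, both searched on both strands, and capitals run together where motifs overlap.
Omd, chr13:49582212-49582461: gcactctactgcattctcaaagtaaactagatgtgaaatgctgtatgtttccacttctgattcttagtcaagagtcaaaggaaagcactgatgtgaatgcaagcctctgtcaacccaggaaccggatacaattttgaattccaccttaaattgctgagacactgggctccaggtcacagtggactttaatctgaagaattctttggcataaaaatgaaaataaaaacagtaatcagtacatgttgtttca
Ogn, chr13:49607765-49608014: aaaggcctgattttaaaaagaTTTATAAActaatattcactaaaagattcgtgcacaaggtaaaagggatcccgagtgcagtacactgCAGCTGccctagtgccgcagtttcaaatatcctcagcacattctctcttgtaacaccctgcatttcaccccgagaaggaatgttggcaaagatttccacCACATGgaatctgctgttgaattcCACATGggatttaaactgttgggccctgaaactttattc
Kera, chr10:97606955-97607204: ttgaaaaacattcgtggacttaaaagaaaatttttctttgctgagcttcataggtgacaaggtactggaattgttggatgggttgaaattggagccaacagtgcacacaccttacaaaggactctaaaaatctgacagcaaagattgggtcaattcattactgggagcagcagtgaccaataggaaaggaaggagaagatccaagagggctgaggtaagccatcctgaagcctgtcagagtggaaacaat
Epyc, chr10:97643818-97644067: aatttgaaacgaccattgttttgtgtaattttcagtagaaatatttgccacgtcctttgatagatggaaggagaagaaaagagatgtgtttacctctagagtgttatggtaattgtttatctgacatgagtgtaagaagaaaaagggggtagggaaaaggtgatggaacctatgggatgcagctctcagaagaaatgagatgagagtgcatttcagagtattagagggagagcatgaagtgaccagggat
The Ogn window held 3 E-boxes and TATAAA on both strands. These TATAAA matches overlap and lie 229 and 227 bases before the RefSeq start. The windows of Omd, Kera and Epyc held neither motif. Among 32851 RefSeq promoter windows of that length, 66.2% held CANNTG and 12.4% held TATAAA. An E-box and a lack of TATAAA are thus both common. The Kera window ends at a RefSeq start that lies 326 bases downstream of the GENCODE start. The whole window therefore lies inside the gene as GENCODE draws it.

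In connective tissue-like cells, 6 of the 10 genes were at least 2-fold higher at E15.5 than at E12.5, where 10.3% of the 15042 genes measured in the class were. These were Dcn, Lum, Bgn, Ogn, Prelp and Aspn. The count was 5 to 7 under the alternative settings: 5 of the 6 passed in each of them, whereas Prelp passed in 8 of 12, Kera in 2 and Fmod in 1. Omd and Epyc were at least 2-fold lower, against 24.5% of all genes, and Fmod and Kera differed by less than 2-fold. The median log2 ratio of the 10 genes was 1.71, beside -0.37 for all genes of the class. In chondrocyte-like cells 7 of 10 were at least 2-fold higher, where 10.8% of 12113 genes were, and Epyc alone was at least 2-fold lower, where 14.2% were. The higher count was 5 to 8 under the alternatives. Dcn, Bgn, Fmod, Ogn and Aspn passed in each that measured them, Kera in 11 of 12 and Lum in 8 of 12. The median of the 10 there was 3.39, beside -0.22 for all genes.

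**Figure D1:**
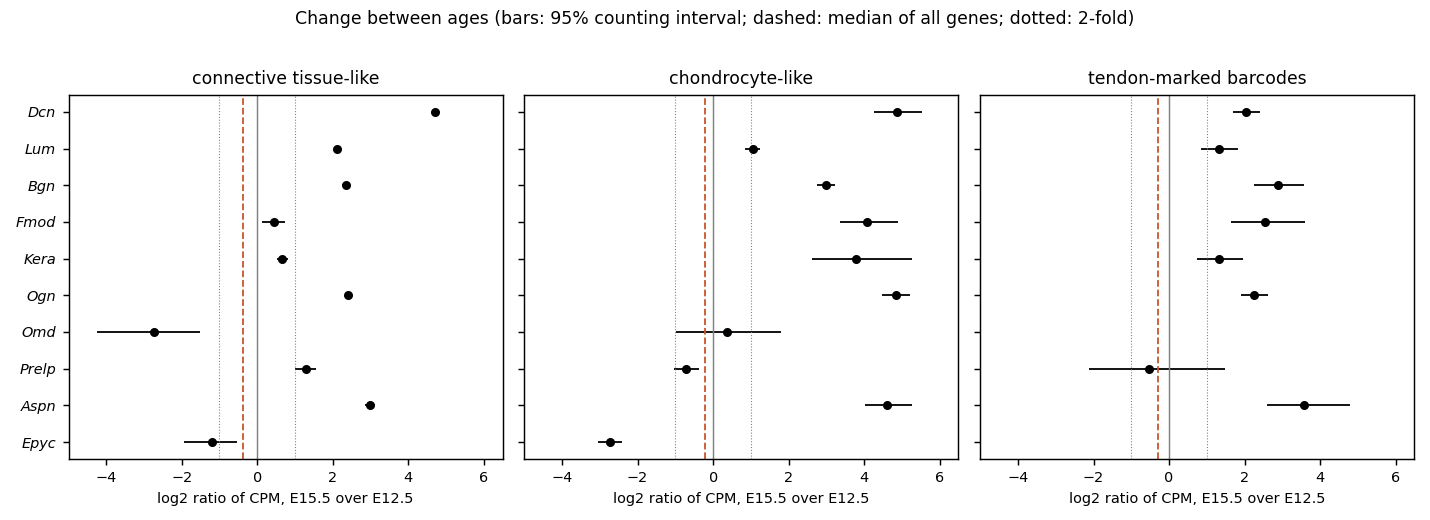
Log2 ratio of CPM at E15.5 over E12.5 (x axis) for each gene (y axis) in connective tissue-like cells, chondrocyte-like cells and barcodes with at least 2 of 7 tendon markers after thinning. Bars are 95% counting intervals, dashed lines the median of all genes, and dotted lines the 2-fold limits. Dcn stands farthest right in connective tissue-like cells at 4.71, and Epyc stands farthest left in chondrocyte-like cells at -2.72.

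Decorin, a collagen-binding chondroitin or dermatan sulfate proteoglycan, gave 1241 UMIs or 65.4 CPM in E12.5 connective tissue-like cells and 24443 UMIs or 1717 CPM in those of E15.5. That is a log2 ratio of 4.71 (95% counting interval 4.63 to 4.80), or 26.2-fold. In chondrocyte-like cells the level of Dcn was lower at each age, 7.38 CPM and 215 CPM, with a log2 ratio of 4.86 (4.27 to 5.53). The tenocyte-like cells of E15.5 lay between these at 619 CPM, and mural-like cells, which surround vessels, held 62.0 CPM. Endothelial-like cells held 1.62 CPM at E12.5 and 11.6 CPM at E15.5, and the immune-, mast- and melanocyte-like cells of E15.5 held between 4.73 and 8.48 CPM. The erythroid-like class of E15.5, 18 cells, held 322 CPM of Dcn, from 8 cells, and also 154 CPM of Lum, from 7 cells. Epithelial-like cells of E15.5, 25 in number, held 268 CPM of Dcn, from 12 cells. Whether the RNA in these 2 small classes was made by the cells named was not tested.

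Biglycan, a close relative of decorin encoded on chromosome X, was spread over more cell classes. Its level was 45.9 CPM in connective tissue-like and 54.3 CPM in chondrocyte-like cells at E12.5, and 236 and 429 CPM at E15.5. The log2 ratios were 2.36 (2.25 to 2.47) and 2.98 (2.76 to 3.22). Endothelial-like cells showed no such difference, with 161 CPM (130 to 195) in the earlier library and 130 CPM (115 to 146) in the later one. At E12.5 this was the highest Bgn level of the 29 clusters with at least 40 cells, with an interval that overlapped that of the next, a connective tissue-like cluster led by Col6a5 at 109 CPM. At E15.5 the order was turned round: tenocyte-like cells held 479 CPM, chondrocyte-like cells 429, mural-like cells 320, and endothelial-like cells 130.

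Asporin, a relative of decorin that lacks glycosaminoglycan chains and binds collagen, went from 28.1 CPM in the earlier connective tissue-like cells to 224 CPM in the later ones, a log2 ratio of 3.0 (2.86 to 3.13). In chondrocyte-like cells it went from 23 UMIs (7.38 CPM) to 822 UMIs (180 CPM), a log2 ratio of 4.61 (4.01 to 5.27). At E15.5 tenocyte-like cells held 263 CPM and mural-like cells also held 263 CPM, so the vessel-wall class matched the tendon class. In muscle lineage-like cells Aspn was at 6.03 and 6.08 CPM. By sex, read from Xist and Y-linked transcripts, the connective tissue-like log2 ratio was 2.46 in male and 3.47 in female cells.

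Lumican, a keratan sulfate proteoglycan of fibrous tissue and cornea, held 157 CPM in the earlier and 686 CPM in the later connective tissue-like cells. The log2 ratio was 2.12 (2.06 to 2.18). In chondrocyte-like cells it was 93.7 and 194 CPM, a log2 ratio of 1.05 (0.86 to 1.24), which is close to the 2-fold limit and was 0.48 in male cells. Its level in tenocyte-like cells, 141 CPM, was below that of both other classes at E15.5.

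Fibromodulin, which binds collagen in tendon and cartilage, held 9.65 CPM in the earlier connective tissue-like cells and 13.1 CPM in the later ones (log2 ratio 0.44, 0.13 to 0.74). In chondrocyte-like cells it went from 16 UMIs (5.14 CPM) to 393 UMIs (86.0 CPM), a log2 ratio of 4.07 (3.35 to 4.89). Its highest level was 248 CPM in tenocyte-like cells. Fmod was listed at 2 UMIs or fewer in the muscle lineage-, endothelial- and immune-like cells of either age.

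Keratocan, best known from the cornea, held 37.9 CPM in connective tissue-like cells at E12.5 and 59.9 CPM in those of E15.5, a log2 ratio of 0.66 (0.52 to 0.81). In chondrocyte-like cells 6 UMIs (1.93 CPM) stood against 122 UMIs (26.7 CPM), a log2 ratio of 3.79 (2.63 to 5.27), which was 0.84 with both libraries clustered together. Tenocyte-like cells held 275 CPM. The Kera ratio in connective tissue-like cells had no fixed sign: it was -0.075 with 4000 variable genes and -0.0099 when both libraries were clustered together.

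Prolargin, a basic protein that anchors basement membranes to connective tissue, went opposite ways in the 2 classes. It was 8.81 CPM and 21.5 CPM in connective tissue-like cells (log2 ratio 1.29, 1.01 to 1.57, but 0.75 without doublet removal and 0.96 in male cells), and 50.4 CPM and 30.9 CPM in chondrocyte-like cells (log2 ratio -0.71, -1.05 to -0.37). The second ratio was positive under 3 alternatives: 0.44 with 4000 variable genes, 0.14 with a minimum of 1000 genes per cell, and 2.41 with both libraries clustered together. No Prelp UMI was seen in the 151 tenocyte-like cells, where 3 UMIs would be 1.90 CPM.

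Osteomodulin, a keratan sulfate proteoglycan of mineralized tissue, was barely detected. Over all kept cells it gave 73 UMIs in the earlier library and 35 in the later one. In connective tissue-like cells 53 UMIs (2.79 CPM) stood against 6 UMIs (0.42 CPM), a log2 ratio of -2.73 (-4.24 to -1.51). No cluster of at least 40 cells exceeded 7.28 CPM at either age.

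Osteoglycin, also called mimecan and found in bone, tendon and muscle connective tissue, held 94.8 CPM at E12.5 and 503 CPM at E15.5 in connective tissue-like cells, a log2 ratio of 2.41 (2.33 to 2.48). In chondrocyte-like cells it was 19.9 and 570 CPM, a log2 ratio of 4.84 (4.48 to 5.23). Tenocyte-like cells held 1022 CPM. Ogn was also present in muscle lineage-like cells, at 47.0 CPM (38.9 to 56.4) in the earlier library and 115 CPM (107 to 124) in the later one, against 3.24 and 7.26 CPM in endothelial-like cells. Schwann-like cells of E15.5 held 74.1 CPM of Ogn, from 43 UMIs, while their Dcn came to 3 UMIs. In cells assigned a sex from Xist and Y-linked transcripts, the connective tissue-like log2 ratio of Ogn was 1.77 in male and 2.86 in female cells.

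Epiphycan, a proteoglycan of growth plate cartilage, was at 446 UMIs (143 CPM) in chondrocyte-like cells at E12.5 and at 99 UMIs (21.7 CPM) at E15.5. The log2 ratio was -2.72 (-3.05 to -2.41). In connective tissue-like cells it held 3.90 and 1.69 CPM, a log2 ratio of -1.21 (-1.94 to -0.53) that passed the 2-fold limit under 6 of 12 alternatives. Endothelial-like cells had no Epyc UMI at either age.

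**Figure D2:**
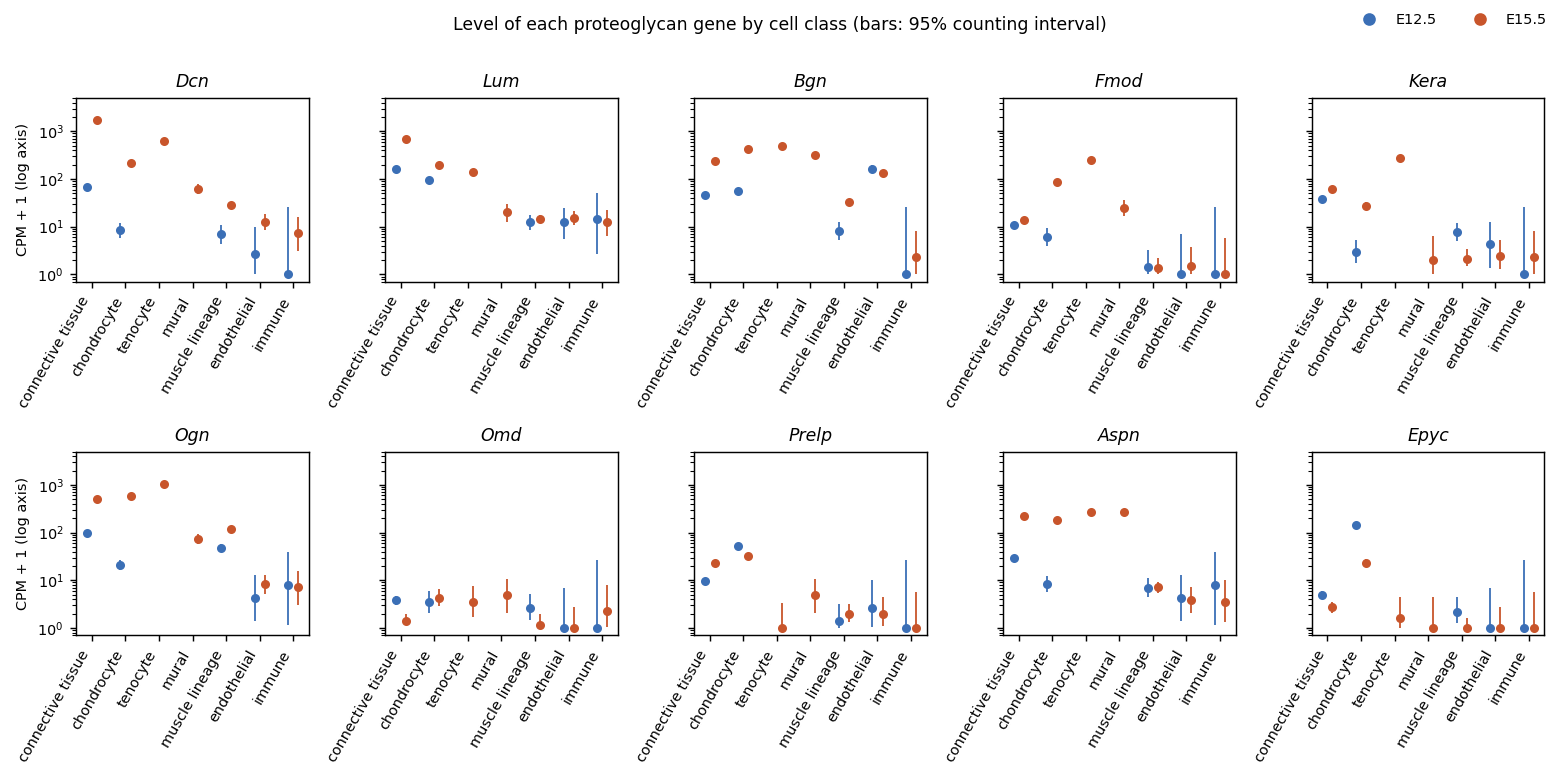
CPM + 1 (y axis, log scale) of each gene in 7 cell classes (x axis) for both ages. Bars are 95% counting intervals, and tenocyte- and mural-like cells were named at E15.5 only. Dcn reaches 1717 CPM in connective tissue-like cells, whereas Fmod and Kera are highest in tenocyte-like cells.

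Between the clusters of a library the genes were far from even. At E12.5, 4 clusters that made up 15% of the cells held 73.8% of the Dcn UMIs, 58.9% of the Lum UMIs and 80.8% of the Kera UMIs. These clusters were led by Sall1 and Hand2os1, by Grem1 and Alx1, and in 2 cases by Calb2. Sall1, Hand2 and Grem1 are known from the patterning of the distal limb. The Grem1-led cluster, 210 unnamed cells, held 671 CPM of Kera, against 203 CPM in the Sall1-led cluster and a median of 5.27 CPM over the 29 clusters. Dcn was at 656 CPM in the Sall1-led and 559 CPM in the Grem1-led cluster, whose intervals overlapped, against a median of 12.4 CPM. Lum was highest in the Calb2-led clusters, at 571 and 447 CPM.

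The other genes had other leading clusters at E12.5. Aspn peaked at 137 CPM in a cluster led by Sim2 and Tbx3os1, and Ogn at 287 CPM in the Grem1-led cluster. Fmod peaked at 52.7 CPM in an unnamed cluster led by the tendon genes Thbs4 and Mkx among others, though its interval overlapped that of the Col6a5-led cluster at 40.4 CPM. Of the Epyc UMIs at E12.5, 83.4% lay in chondrocyte-like cells, unevenly: 264 CPM in the one led by Matn1 and Hapln1, 136 CPM in the one led by Hapln1 and Matn1 with Matn3, and 11 CPM in the third, led by Runx3 and Cytl1. Prelp did not split the cartilage clusters in that way, with 62.3, 42.0 and 41.3 CPM in the same order.

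At E15.5 the Dcn and Lum maxima lay in different connective tissue-like clusters. Dcn was at 3021 CPM in the cluster led by Dpt and Apod and at 2869 CPM in the one led by Spink6 and Anxa8, with overlapping intervals. Lum was at 1922 CPM in the cluster led by Stmn2 and Twist2, 84 cells, and next at 1164 CPM in the Dpt-led one. That Stmn2-led cluster held 67.0 CPM of Ogn and 5.0 CPM of Aspn, the lowest level of either among the 8 connective tissue-like clusters. Aspn was highest at 428 CPM in the cluster led by Clec3b, Mfap5 and Tnxb, genes known from fascia-like fibroblasts. The Spink6-led cluster of 58 cells held 107 CPM of Prelp and 239 CPM of Kera, where the other 7 connective tissue-like clusters had at most 38.8 and 89.3 CPM.

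**Figure D3:**
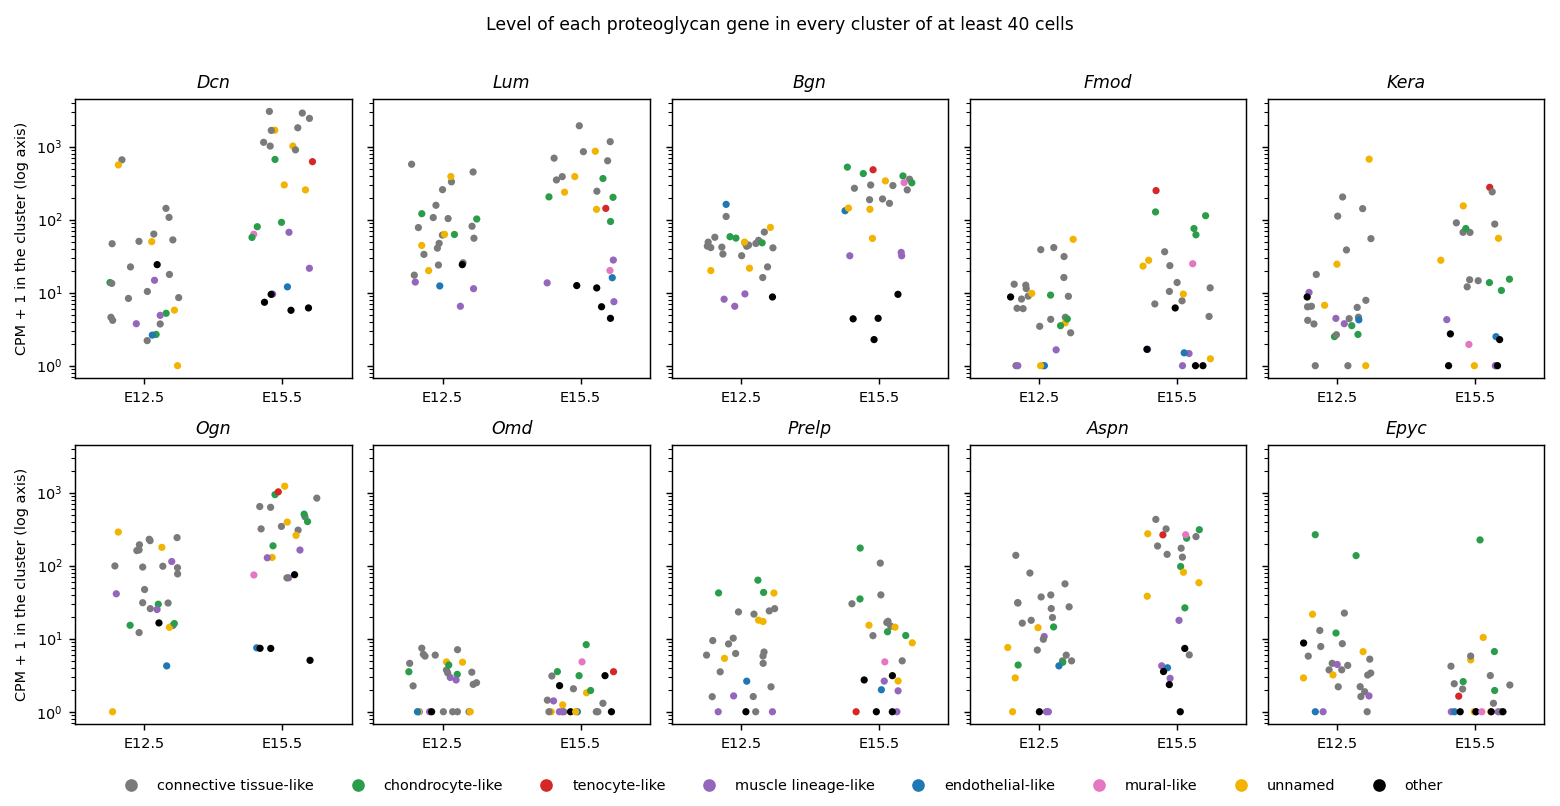
CPM + 1 (y axis, log scale) of each gene in every cluster of at least 40 cells, 29 in the earlier and 26 in the later library (x axis, with points spread sideways). Each point is a cluster, coloured by its class. Epyc shows 2 high points at E12.5 and 1 at E15.5, all chondrocyte-like, while Dcn and Ogn shift upward across most mesenchymal clusters.

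The tenocyte-like cluster of E15.5 held 1684 CPM of the tendon gene Tnmd and 550 CPM of Scx. Fmod (248 CPM) and Kera (275 CPM) reached their highest cluster levels of that library there. The Grem1-led cluster of E12.5 held more Kera, 671 CPM. For Fmod the next cluster, chondrocyte-like and led by Mia, was at 126 CPM and its interval did not overlap. For Kera the Spink6-led cluster at 239 CPM overlapped. Ogn at 1022 CPM came after only the unnamed cluster led by Nefm and Tac1 at 1220 CPM. A change with age could not be read from the class itself, since no E12.5 cluster was named tenocyte-like, so cells were also picked by markers: barcodes outside other lineages with at least 2 of 7 tenocyte markers after each was thinned to 2000 UMIs. The gate kept 121 of 6183 barcodes in the earlier library and 235 of 2798 in the later one. Among these, 7 of the 8 measured genes were at least 2-fold higher at E15.5, where 11.3% of 9528 genes were, and none was at least 2-fold lower, where 20.3% were. Omd and Epyc had too few UMIs to be measured.

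In these tendon-marked barcodes Fmod was 28.9 CPM (10 UMIs) and then 168 CPM, a log2 ratio of 2.54 (1.65 to 3.61). Kera was 75.1 and 188 CPM (1.32, 0.75 to 1.95), Ogn 191 and 909 CPM (2.25, 1.90 to 2.63), and Aspn 23.1 CPM (8 UMIs) and 277 CPM (3.58, 2.60 to 4.80). Dcn was 188 and 773 CPM, a log2 ratio of 2.04 (1.68 to 2.42), smaller than in connective tissue-like cells. The E12.5 barcodes were spread over many clusters: the Thbs4-led cluster gave the most, 29 of 121, and the next gave 12. Of the E15.5 barcodes, 116 of 235 came from the tenocyte-like cluster. The Tnmd level of the tendon-marked barcodes was 40.5 CPM at E12.5 and 1057 CPM at E15.5. The part of these differences in the ratios was not tested. Under 3 alternative settings a tenocyte-like class was named at both ages, and there the log2 ratio was 2.10 to 2.26 for Fmod, 3.0 to 3.39 for Kera, 2.14 to 2.33 for Ogn and 4.11 to 5.07 for Aspn.

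In cartilage the class comparison and a comparison of like clusters differed for Epyc and Prelp. Different clusters held the chondrocyte-like class at the 2 ages: at E15.5 its largest, 280 of 587 cells, was led by Dkk3, Gdf5 and Scrg1, whereas the E12.5 cluster that shared Gdf5 and Scrg1 was named connective tissue-like. The class held 4431 CPM of Col2a1 at E12.5 and 1608 CPM at E15.5, and 149 and 2414 CPM of Col1a1. The part of this shift in the ratios was not tested. When the E12.5 cluster led by Matn1, Hapln1 and Acan (493 cells) was set against the E15.5 cluster led by Matn1 and Col2a1 (44 cells), which share 6 of their 10 leading genes and were paired after the data were seen, Epyc was 264 CPM and 224 CPM. That log2 ratio was -0.24 (-0.59 to 0.10), in place of -2.72 in the class. Prelp was 62.3 and 173 CPM there, a log2 ratio of 1.47 (0.99 to 1.95), in place of -0.71. The log2 ratios of Bgn (2.54), Fmod (3.76), Ogn (3.70) and Dcn (2.13) were positive in this pair as in the class, and Lum was 119 and 203 CPM (0.77, 0.36 to 1.17). In this pair 5 of 7 measured members were at least 2-fold higher, where 5.87% of genes were, and none was lower, where 24.5% were. Other pairs did not show the Prelp rise. Between the Runx3- and Cytl1-led cluster of E12.5 (497 cells) and the Mia-led cluster of E15.5 (171 cells), its log2 ratio was -0.28 (-0.91 to 0.34). Epyc there was -0.95 (-2.52 to 0.48), on 13 and 7 UMIs. Between the clusters that shared Gdf5 and Scrg1, Prelp was -1.15 (-2.07 to -0.25), on 28 and 19 UMIs.

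Pairs of clusters that shared at least 2 leading genes gave the direction of the other genes in narrower groups. They were added after the data were seen, and 9 pairs were found. In the pair that shared Gdf5 and Scrg1, 7 of 8 measured members were at least 2-fold higher (8.49% of genes) and 1 was lower (19.9%). In the pair that shared Thbs4 and Mkx, 7 of 7 were higher (8.08%) and none was lower (24.6%). In the cartilage pair that shared Cytl1 and Matn4, 6 of 8 were higher (8.35%) and none was lower (16.6%). An unnamed pair that shared Sfrp2 had 8 of 9 higher (10.7%) and 1 lower (18.8%), and one that shared Ebf2 and Ntm had 4 of 7 higher (9.45%) and none lower (21.9%). The endothelial-like pair had 3 measured members, of which Dcn was higher (7.18%) on 1 and 22 UMIs and none was lower (12%). The differentiated muscle pair had 4 of 5 higher (11.9%) and none lower (19.8%), but its 67 E12.5 cells held 1 UMI of Dcn, 2 of Lum, 2 of Bgn and none of Aspn, so each of these calls rests on few counts. At most 5 E12.5 UMIs also lay behind 3 of the 7 higher calls of the Gdf5-sharing pair, 4 of the 8 of the Sfrp2-sharing pair and 2 of the 6 of the Cytl1- and Matn4-sharing pair. Between the Runx3- and Cytl1-led cluster and the Mia-led cluster, Ogn was 28.7 and 936 CPM (5.03, 4.54 to 5.57) and Fmod 2.53 and 126 CPM (5.64, 4.07 to 7.94), the E12.5 Fmod value resting on 3 UMIs. Between the Gdf5- and Scrg1-sharing clusters Ogn was 11.1 and 505 CPM (5.51, 4.75 to 6.38). Fmod, at 30.2 and 60.9 CPM, was close to 2-fold (1.01, 0.47 to 1.58). In the pair that shared Thbs4 and Mkx, Fmod was 52.7 and 248 CPM, Kera 23.5 and 275 CPM, and Aspn 13.2 and 263 CPM. Prelp gave 18 UMIs and none in that pair, under the 20 UMIs set for a ratio.

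A pair that shared Apcdd1 and Lix1, the Calb2-led cluster of E12.5 and the Stmn2-led cluster of E15.5, split the family. Dcn was 141 and 2425 CPM (4.10, 3.90 to 4.3) and Lum 571 and 1922 CPM (1.75, 1.64 to 1.87). Kera instead was 140 and 14 CPM (-3.32, -4.22 to -2.55), Ogn 241 and 67.0 CPM (-1.85, -2.24 to -1.47), and Aspn 36.3 and 5.0 CPM (-2.86, -4.53 to -1.56). That makes 3 of 6 measured members higher with Bgn, where 8.84% of genes were, and 3 lower, where 26.8% were. Differentiated muscle clusters, which shared Myh3 and 7 other leading genes, kept Ogn at 113 and 127 CPM (0.17, -0.32 to 0.70). Endothelial-like clusters kept Bgn at 161 and 131 CPM (-0.29, -0.63 to 0.06).

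Because E15.5 cells were read more deeply, shares of barcodes were compared after every cell was thinned to 2000 UMIs, a step that dropped 4046 shallower cells of the E12.5 library and 270 of the E15.5 library. Dcn was then found in 7.88% of the earlier and 81.7% of the later connective tissue-like cells. For Lum the shares were 19.5% and 57.3%, for Ogn 13.3% and 49.8%, for Bgn 8.22% and 34.5%, and for Aspn 4.46% and 26.0%. In chondrocyte-like cells Bgn went from 10.3% to 50.6%, Ogn from 3.75% to 42.9%, and Epyc from 15.1% to 1.72%. Among tenocyte-like cells 73.2% carried Ogn, 56.4% Bgn, 53.7% Dcn, 32.9% Fmod and 32.9% Kera. In endothelial-like cells, which served as a background class, 0 of 116 thinned cells held a Dcn UMI in the earlier library. With 3 cells as the limit of a count of 0, that allows up to 2.59% of cells with a UMI at this depth, and the upper Clopper-Pearson bound is 3.13%. In the later library 0.76% held one, while Bgn was in 21.6% and 24.4%. Without thinning, the shares of connective tissue-like cells were 8.88% and 94.2% for Dcn, 20.6% and 79.9% for Lum, 14.7% and 80.3% for Ogn, 10.0% and 79.6% for Bgn, and 4.92% and 47.7% for Aspn. Those of endothelial-like cells with Dcn were 0.76% and 7.89%. Median depths were 2297 and 10099 UMIs in connective tissue-like cells and 3871 and 10588 UMIs in endothelial-like cells.

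**Figure D4:**
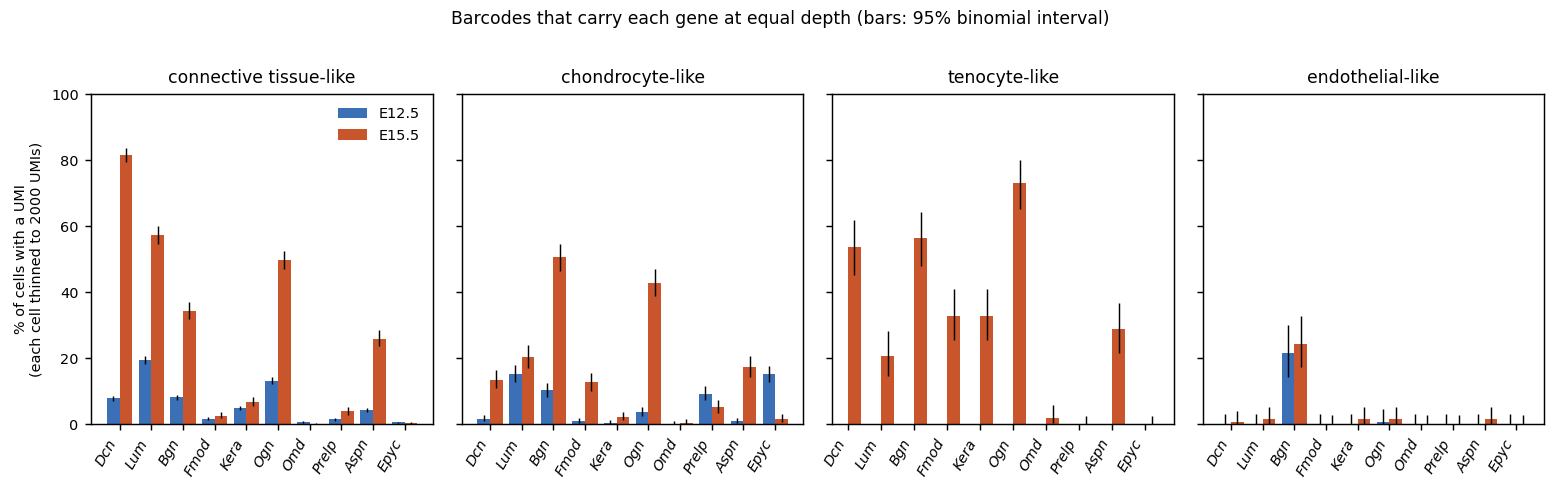
Share of cells with at least 1 UMI of each gene (y axis, percent) after every cell was thinned to 2000 UMIs, for 4 classes and both ages. Bars carry 95% binomial intervals (Clopper-Pearson), and no tenocyte-like class was named at E12.5. Dcn goes from 7.88% to 81.7% in connective tissue-like cells, and Bgn alone exceeds 2% in endothelial-like cells.

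More members were found per connective tissue-like or chondrocyte-like barcode at the later age. A thinned connective tissue-like barcode held 0.63 of the 10 genes on average at E12.5 and 2.63 at E15.5. At least 3 of the genes were found in 4.07% and 52.3% of these barcodes. For chondrocyte-like barcodes the means were 0.58 and 1.67, and tenocyte-like barcodes had the highest mean, 3.01, with 62.4% at 3 or more. Immune-like barcodes held 0.07 at both ages. Each mean adds up the shares of the single genes, and the share with 3 or more rises with them. Whether members shared barcodes beyond what the single shares give was not tested.

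Across the clusters of E12.5, neighbours on chromosome 10 fell into 2 patterns. Over the 29 clusters of E12.5, the Pearson r of log2(CPM + 10) was 0.90 between Dcn and Kera, 0.77 between Dcn and Lum and 0.75 between Lum and Kera. It was -0.05, 0.26 and -0.10 between Epyc and Dcn, Lum and Kera. Over the 26 clusters of E15.5, Dcn and Lum reached 0.95, Dcn and Kera 0.79, and Lum and Kera 0.74. On chromosome 13 Aspn and Ogn had r of 0.66 and 0.83. On chromosome 1 Fmod and Prelp had 0.03 and 0.46. Prelp was closest to Epyc at E12.5 among those named here, at 0.61. Members on different chromosomes reached like values at E15.5: 0.80 for Bgn and Aspn, 0.76 for Bgn and Ogn, and 0.74 for Dcn and Ogn. Other such pairs were lower, as Dcn and Fmod at 0.28. At E12.5 the same 4 pairs had 0.37, 0.08, 0.64 and 0.24. Omd at both ages and Epyc at E15.5 had under 200 UMIs and were left out. A link between likeness and genome position was not tested. The clusters of a library share its depth, so these values describe the libraries only.

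Outside the family, the gene most like Epyc over the E12.5 clusters was Snorc (r = 0.91), which encodes a cartilage membrane proteoglycan. For Prelp it was Fgfr3 (0.90), the growth plate receptor, followed by Mia and Sox5 (0.89 each). Kera was most like Tmeff2 (0.88) and then Grem1 (0.83), Fmod was most like Dcc (0.78), and Ogn was most like Angpt1 (0.88). At E15.5 the closest gene was Ctsk for Dcn (0.92), Cdo1 for Lum (0.96), Eln, which encodes elastin, for Bgn (0.93), Pcolce2, an enhancer of procollagen cleavage, for Fmod (0.88), Nfix for Ogn (0.91) and Ebf1 for Aspn (0.90). For none of the 8 members ranked at both ages was a gene among the 3 most alike at both.

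Many of these proteins bind collagens. Of 18 fibril-forming, fibril-associated and type VI collagens, 11 were at least 2-fold higher in connective tissue-like cells at E15.5, where 10.3% of all genes were. At least 2-fold lower were 6, where 24.5% of all genes were. The type VI genes Col6a1, Col6a2 and Col6a3 were among the higher (3.25, 2.83 and 2.68). Col1a1 (529 and 4345 CPM, log2 ratio 3.04) and Col14a1 (31.1 and 522 CPM, 4.07) were among the higher. The 6 lower were the cartilage collagens Col2a1, Col9a1, Col9a2, Col9a3, Col11a1 and Col11a2. The same split of 11 and 6 was found in chondrocyte-like cells, with the same 6 genes lower, beside 10.8% and 14.2% of all genes. The matched cluster pairs differed from the class. In the Matn1-led cartilage pair, 11 of 17 measured collagens were higher and 0 lower, beside 5.87% and 24.5% of genes. In the pair that shared Cytl1 and Matn4, 11 of 17 were higher and 2 lower (8.35% and 16.6%). In the pair that shared Gdf5 and Scrg1, 9 of 17 were higher and 5 lower (8.49% and 19.9%). Of 29 measured genes that build or sulfate the chains, 4 were higher and 6 lower in connective tissue-like cells, shares near those over all genes, and their median log2 ratio was 0.16 beside -0.37. Chst14 and Chst12, sulfotransferases for dermatan and chondroitin sulfate, were higher (1.27 and 2.22), though under 2-fold in chondrocyte-like cells (0.76 and -0.074), whereas Papss2, which makes the sulfate donor, was lower (-2.61, and -3.52 in chondrocyte-like cells). Chst11, a chondroitin 4-O-sulfotransferase, was lower in both (-2.77 and -2.88). Of 7 measured relatives outside the 10, Podn was higher (2.05), while Ecm2, Podnl1 and Chad were lower, and their median of -0.47 stood beside -0.37 for all genes. The cartilage relative Chad had 46 UMIs and then none in connective tissue-like cells. Among 6 measured proteases that act on these proteins, Adamts5 (2.36) and Mmp14 (1.09) were higher and Tll1 (-1.47) was lower. Over all genes of the class, as above, 10.3% were higher and 24.5% lower.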

How the data were processed

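The deposited values are raw UMI counts, not normalized, for every gene in every barcode, made by the authors with Cell Ranger 4.0.0 per the file headers; the submitters' processing notes also name Seurat 4.3.0 and mm10. The annotation release, intron and strand settings are not given in the sources used here. Both matrices hold 32285 genes and total 34907675 (E12.5) and 46966083 (E15.5) UMIs over 12941 and 5780 barcodes. No deposited column was left unused (0).

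Cells with at least 500 genes and under 10% mitochondrial UMIs were kept. Doublets scored against simulated doublets were removed at 0.8% per 1000 barcodes (1270 and 190 cells). Each library was clustered alone (2000 variable genes, 30 components, 15 neighbours, Leiden resolution 2). The 10 members, 8 other family genes, cell cycle genes and sex-linked genes were left out of the variable genes. A cluster took a class name with at least 3 markers 2-fold higher and seen in 10% of its cells, at least 1 of them among its 10 leading genes by fold (10 CPM added). A leftover cluster was called connective tissue-like where at least 3 connective tissue markers were 2-fold above the pooled other lineages and seen in 10% of its cells. It stayed unnamed where another marker list had more genes among its 10 leading genes. Unnamed clusters with connective tissue markers were 3 at E12.5 (1309 cells) and 2 at E15.5 (702 cells), the Thbs4-, Grem1- and Nefm-led ones among them. Shallow clusters without a class marker among their leading genes also stayed unnamed. So did a cluster led by blood progenitor genes, an exception set after the clusters were seen. Classes were thus rebuilt and may differ from the study's.

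UMIs were summed per class or cluster and given as CPM with exact Poisson intervals, ratios with exact conditional intervals and shares with Clopper-Pearson intervals, all at 95%. A ratio needed 20 UMIs over both libraries. All 10 members are named; lists, markers and members were chosen with earlier results of these data known. Likeness used genes with at least 200 UMIs in a library and clusters of at least 40 cells. The ratio and its interval were run on simulated Poisson counts. These hold no variation between cells, embryos or libraries, so that run covers counting error only. Python 3.11.15, numpy 2.4.6, scipy 1.17.1, pandas 2.3.3, scikit-learn 1.9.0, leidenalg 0.10.2, igraph 0.11.9 and matplotlib 3.10.9 were used.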

Additional observations from a re-analysis of the deposited data

Results flagged for a closer look

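Prelp had a positive log2 ratio of E15.5 over E12.5 in connective tissue-like cells, 1.29, and a negative one in chondrocyte-like cells, -0.71. The directions are opposite with 1 library per age, and the difference was not tested. In the closest matched cartilage clusters, led by Matn1 at both ages, the Prelp ratio was 1.47. In the larger cartilage pair that shared Cytl1 and Matn4 it was -0.28 (-0.91 to 0.34).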

How the results depend on the processing

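Over the alternatives tried, 9 of 10 members kept the sign of their log2 ratio in connective tissue-like cells and 7 of 10 in chondrocyte-like cells. For Kera in connective tissue-like cells it was -0.075 with 4000 variable genes and -0.0099 with both libraries clustered together. For Prelp in chondrocyte-like cells it was 0.44 with 4000 variable genes, 0.14 with at least 1000 genes per cell and 2.41 clustered together, and for Epyc 1.60 clustered together. The chondrocyte-like class also differed in size from the 1141 and 587 cells of the main setting. It held 1366 and 187 cells with 4000 variable genes, 937 and 185 with at least 1000 genes, and 2775 and 49 clustered together. The cause of the changes of sign was not tested. Of the 39 joint clusters, 32 took at least 90% of their cells from 1 library. Omd in chondrocyte-like cells, measured by few UMIs, was 0.35 and had the other sign under 3 alternatives, down to -1.40 with at least 1000 genes per cell. Of all recomputed member ratios, 130 stayed within the counting interval of the reported value with the same sign, 98 moved beyond it with the same sign and 9 changed sign, 2 of these within the interval.

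The 6 higher connective tissue-like members became 5 without doublet removal, with each cell of equal weight or with unnamed clusters joined, and 7 clustered together or relative to the median gene. The 7 higher chondrocyte-like members became 6 at resolution 1, with each cell of equal weight or without the cycling cluster, 5 in male cells and 8 clustered together. The 2 connective tissue-like members that were 2-fold lower became 1 without doublet removal, with at least 1000 genes, clustered together, in male or in female cells, with unnamed clusters joined or relative to the median gene. They became 0 with at least 100 UMIs, which leaves Omd and Epyc out. In chondrocyte-like cells the 1 lower member became 0 clustered together and 2 in male cells. Counts over all genes in connective tissue-like cells were 2406 lower in male cells, 2441 higher and 2320 lower relative to the median gene, 3104 higher and 7645 lower with a minimum of 1 UMI, and 2421 lower with 100 UMIs. In chondrocyte-like cells they were 3759 lower clustered together, 764 higher in male cells, 1097 lower relative to the median gene, 3821 higher and 4348 lower with 1 UMI, and 592 higher and 956 lower with 100 UMIs.

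No paired analysis was possible because the labels give no replicate numbers and each age has 1 library. Depth limits Omd, with 73 and 35 UMIs, and Epyc at E15.5, with 164 UMIs. Age, library, depth and the cells captured cannot be told apart.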
